A study of Mus musculus with 12 samples.

Results

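The comparison described here set exosomes from mouse granulosa cells cultured with iron and an iron chelator against exosomes from untreated cells, and asked what stayed different from the untreated state when the iron was chelated. It used the 6 libraries labelled DFO or CON, 3 of each, out of 12 small RNA libraries of the series, and every miRNA entry in their count tables. The CON cells received no treatment. The DFO cells received 100 μM ferric citrate together with 100 μM deferoxamine mesylate. The other 6 libraries came from cells given 100 μM ferric citrate alone (FAC, 3 libraries) or with 200 μM VITE (VE, 3 libraries), and they served here to estimate the spread between replicates and as values beside the results. All 4 groups were primary granulosa cells of hormone-primed Kunming mice, kept for 24 h in medium free of exosomes and then for 48 h in culture, and exosomes were spun down from the medium by stepwise centrifugation before their small RNA was extracted with a column kit. The comparison holds no arm with deferoxamine alone, so the effects of the chelator and of the remaining iron cannot be told apart. The sources used here do not say whether the 3 libraries of a group came from separate cultures or animals, so the spread behind the p-values may be technical. For each miRNA that spread was drawn to a trend shared by miRNAs of similar level over all 12 libraries. A p-value therefore does not rest on the spread of that miRNA's own 6 values alone.

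Granulosa cells surround the oocyte and pass RNA, hormones and vesicles to it through the follicular fluid. Exosomes are small vesicles of endosomal origin whose cargo includes miRNAs, short RNAs that repress target mRNAs mainly through the seed, bases 2 to 8 from the 5′ end. Deferoxamine binds ferric iron and withdraws it from the labile pool, and it is also known to stabilise the hypoxia-inducible factors, because the enzymes that mark these factors for degradation need iron.

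The mature sequences below belong to the miRNAs the results turn on and to their close relatives, with the seed in capitals. They are shown because the relatives share a seed, and so a set of predicted targets, while in most families only 1 or 2 members passed the test, and because members that differ at 1 or 2 bases can exchange reads in counting. The sequences were taken from RefSeq (GRCm38.p6), which gave a mature sequence for 549 of the 637 entries and for 38 of the 42 miRNAs past the threshold described further on.
miR-125a-5p: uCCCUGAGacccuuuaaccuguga
miR-125b-5p: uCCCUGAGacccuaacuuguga
miR-351-5p: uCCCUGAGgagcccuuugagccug
miR-148a-3p: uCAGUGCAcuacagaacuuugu
miR-148b-3p: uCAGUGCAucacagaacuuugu
miR-152-3p: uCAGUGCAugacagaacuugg
let-7a-5p: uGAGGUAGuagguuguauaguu
let-7c-5p: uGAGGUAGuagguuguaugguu
let-7d-5p: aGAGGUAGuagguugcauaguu
let-7e-5p: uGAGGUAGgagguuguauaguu
miR-10a-5p: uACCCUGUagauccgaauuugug
miR-10b-5p: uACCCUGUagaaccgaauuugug
miR-146a-5p: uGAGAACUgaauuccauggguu
miR-146b-5p: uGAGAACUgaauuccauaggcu
miR-22-3p: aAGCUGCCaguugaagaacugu
miR-34b-3p: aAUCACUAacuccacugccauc
miR-206-3p: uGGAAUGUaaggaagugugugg
miR-503-5p: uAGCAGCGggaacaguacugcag
miR-204-5p: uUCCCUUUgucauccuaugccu
miR-1843b-5p: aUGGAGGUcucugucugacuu
miR-1843a-5p: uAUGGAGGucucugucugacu
In base positions counted from 1 at the 5′ end of the first miRNA named, let-7a-5p and let-7c-5p differ by A19G alone, let-7a-5p and let-7e-5p by U9G alone, and let-7a-5p and let-7d-5p by U1A and U16C. The miR-10 pair differs by U12A, and miR-146a-5p and miR-146b-5p by G18A and U21C. The values of these near-identical members are uncertain to the extent that counting could not assign a read to 1 of them.

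The tables gave counts for 637 entries, 5 of which join 2 names. The miRNA counts of the CON libraries summed to 1211227, 452021 and 700405, and those of the DFO libraries to 3043884, 4877426 and 1373519, out of library totals between 22631206 and 24826306 reads. The miRNA share of the library total was 4.998%, 1.997% and 2.83% in CON replicates 1 to 3 and 12.5%, 19.9% and 5.53% in DFO replicates 1 to 3. Each DFO library lay above each CON library, and the group means were 3.28% ± 1.55 and 12.6% ± 7.16 (SD, n = 3), a difference of 9.35 percentage points (p = 0.1 in a two-sided exact permutation test, which 3 libraries against 3 cannot go below). The 95% Wilson interval of a library's share was at most 0.032 points wide in the 6 libraries. At least 1 count was found for 266 to 284 entries in the CON libraries and for 280 to 332 in the DFO libraries, so the groups overlapped (exact permutation test, two-sided, p = 0.2). With each library thinned to 452021 counts, the means were 253 ± 15.2 and 259 ± 20.0 entries (SD, n = 3, exact permutation p = 0.7). The 10 highest entries held 81.3% to 82.3% of the miRNA counts in CON and 77.5% to 81.7% in DFO. Reads copied by PCR do not count molecules independently, and the intervals and the detection floors used below allow for counting error alone.

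Values below are normalized CPM, which relate the counts to the sum of the miRNA counts of a library after TMM scaling, and a fold change is therefore relative to the other miRNAs of the library. Entries reaching 10 counts in sum across the series were tested, 547 in all, with edgeR's quasi-likelihood test. Of these, 454 had a count in the 6 libraries, and the others could not be past the threshold described next. A miRNA past the threshold had a fold of at least 1.5 and an unadjusted p under 0.05. The study gives this fold and p for its miRNAs without naming an adjustment, and the unadjusted p was chosen here. Benjamini-Hochberg adjusted p-values over the 547 entries are given beside it. In DFO against CON, 42 of the 547 entries (7.68%) were past the threshold, 15 higher (2.74%) and 27 lower (4.94%) in DFO, and 3 (0.548%) had an adjusted p under 0.05. The libraries of the groups did not overlap for 33 entries (6.03%), 21 with DFO above CON (3.84%) and 12 with DFO below (2.19%). Among the 42, they did not overlap for 11 of the 15 higher and 4 of the 27 lower miRNAs. Of the 42 entries with a mean of at least 1000 CPM over the 6 libraries, 5 were past the threshold (11.9%): miR-148a-3p, miR-143-3p and miR-10b-5p were lower in DFO, and miR-125a-5p and let-7a-5p were higher.

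**Figure D1:**
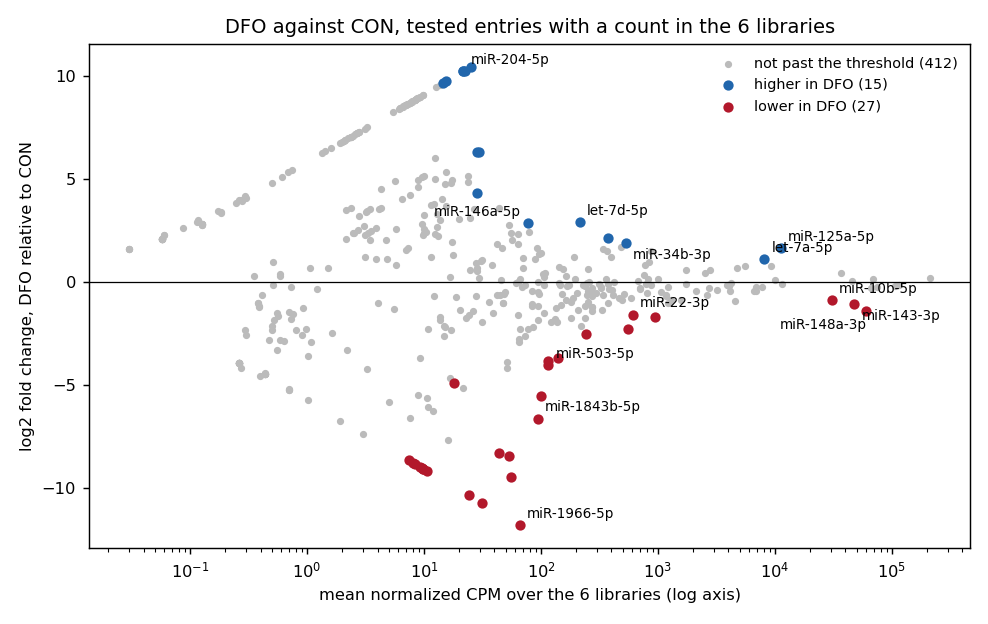
The log2 fold change of DFO relative to CON (vertical axis) is drawn against the mean normalized CPM over the 6 libraries (horizontal log axis), with 1 point for each of the 454 tested entries that had a count in these libraries. The 5 marked miRNAs above 1000 CPM lie within 2 log2 units of 0, and the slanted line of points at the upper left holds entries with no count in CON. Blue points were higher and red points lower in DFO.

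The scaling bears on every direction. When the counts were scaled to the library read totals instead, the median log2 fold change of all tested entries moved from 0.00 to 1.45, and 93 entries were past the threshold, 90 higher and 3 lower in DFO. Of the 42 miRNAs, the 15 higher ones kept their sign under that scaling, as did 21 of the 27 lower ones. The shift is upward and could hardly turn a positive sign, so the kept sign of the higher ones is no check on them. Of the 27 lower ones, 14 had at most 3 counts in each DFO library, and 13 had more than 3 in a library of each group. The 6 that changed sign, all among these 13, were miR-148a-3p, miR-143-3p, miR-10b-5p, miR-22-3p, miR-296-3p and miR-292a-5p. Their log2 fold changes became 0.47, 0.57, 0.97, 0.44, 0.10 and 0.03. Each of these 6 remained under the median shift of 1.45. For these 6 miRNAs "lower" means a smaller part of the miRNA pool of DFO exosomes, not fewer reads per library.

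**Figure D2:**
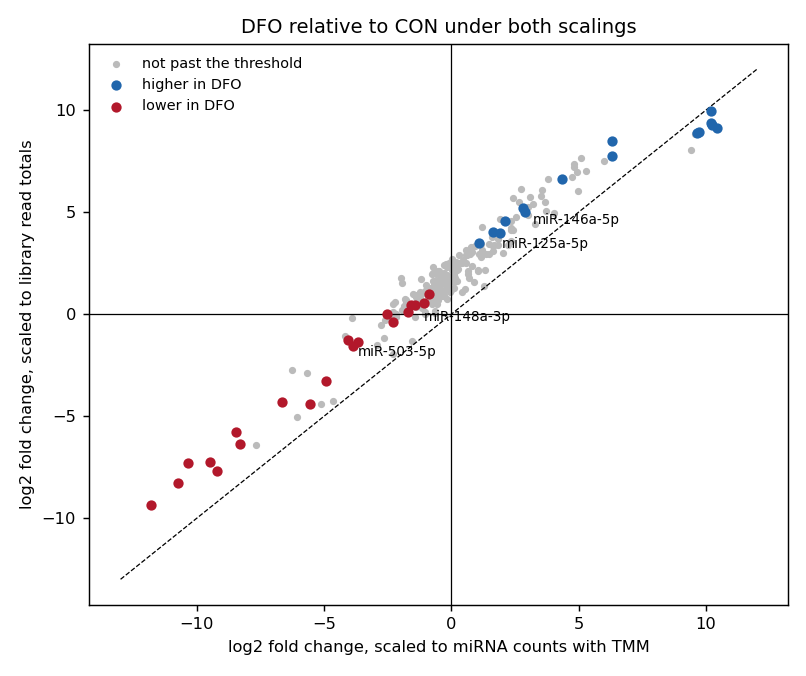
The log2 fold change of DFO relative to CON after scaling to miRNA counts with TMM (horizontal axis) is set against the value after scaling to library read totals (vertical axis), for tested entries with a mean of at least 10 CPM. Most points lie above the dashed line of equal values, and 6 miRNAs lower in DFO lie between 0 and 1 on the vertical axis.

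The counts also showed how much of a difference 1 library could make. For each library, the highest point of the distribution of counts between 10 and 500 is here called the lowest mode. That range leaves out the lowest counts, so a peak at a few reads was not looked for. In these 6 libraries, 51 to 109 entries had 1 to 3 counts. The lowest mode lay at 68.6, 117 and 198 counts in CON replicates 1 to 3 and at 140, 91.1 and 94.9 counts in DFO replicates 1 to 3. Of the 42 miRNAs past the threshold, 26 (61.9%) had no count above 3 times the lowest mode in any of the 6 libraries, against 291 of the 454 tested entries with a count (64.1%). The other 16, of which 7 were higher and 9 lower in DFO, are described first.

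**Figure D3:**
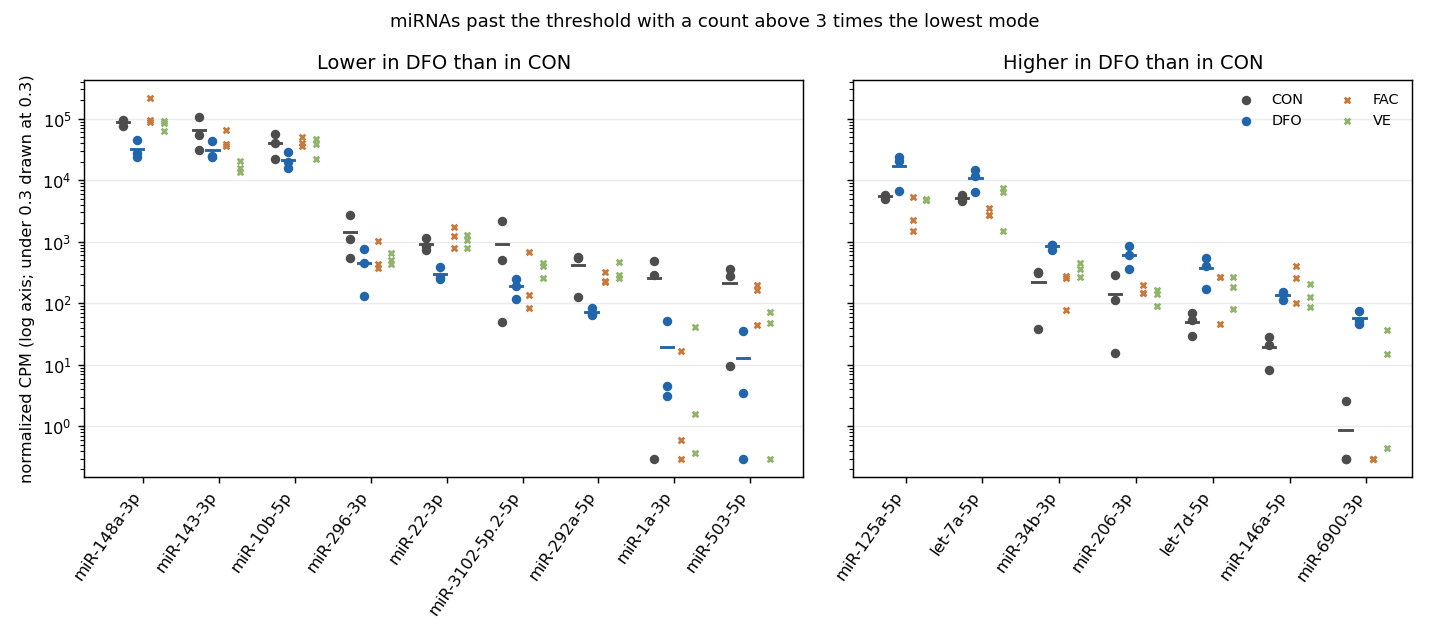
Normalized CPM (vertical log axis) of the 16 miRNAs past the threshold with a count above 3 times the lowest mode, 1 point per library, with bars at the CON and DFO means, the FAC and VE libraries as crosses and values under 0.3 drawn at 0.3. The DFO points of miR-148a-3p, miR-22-3p and miR-292a-5p lie below all their CON points, and those of the 7 higher miRNAs lie above.

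miR-125a-5p, a homologue of the developmental timing miRNA lin-4, stood at 5578, 5842 and 4981 CPM in CON replicates 1 to 3 and at 20231, 24262 and 6662 CPM in DFO replicates 1 to 3. The CON libraries were close together, and 2 of the DFO libraries stood far above them, while DFO replicate 3 exceeded the highest CON library by a small margin. The means were 5467 ± 441 and 17052 ± 9221 CPM (SD, n = 3), a log2 fold change of 1.64 (SE 0.53, edgeR unadjusted p = 0.00185, adjusted p = 0.22). It was the 1 miRNA of the 42 that stayed past the threshold in all 20 alternative settings, with values from 1.30 without DFO replicate 2 to 4.03 with library read totals. The FAC libraries averaged 3000.2 ± 1996 CPM and the VE libraries 4868 ± 164 CPM. Against FAC, which shares the DFO libraries with this comparison, the log2 fold change of DFO was 2.51 (edgeR adjusted p = 0.000724), and FAC against CON gave -0.87 (edgeR unadjusted p = 0.0943).

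The miRNAs of the same transcript and of the same seed did not pass the test. miR-125a is made together with miR-99b and let-7e, and miR-99b-5p had a log2 fold change of 0.44 (edgeR unadjusted p = 0.284) and let-7e-5p of -0.15 (edgeR unadjusted p = 0.803). The other arm of the hairpin, miR-125a-3p, was at 482, 1211 and 648 CPM in CON and 714, 937 and 912 CPM in DFO (log2 fold change 0.13, edgeR unadjusted p = 0.869). miR-125b-5p, which shares the seed CCCUGAG, was at 5039, 7798 and 7727 CPM in CON and 14048, 15268 and 6004 CPM in DFO, with the same 2 DFO libraries high (log2 fold change 0.78, edgeR unadjusted p = 0.119). miR-351-5p, also of this seed, gave -0.26 (edgeR unadjusted p = 0.722). Summed over the seed, the log2 fold change was 1.497 (SE 0.45, edgeR unadjusted p = 0.000879, adjusted p = 0.121), in a fit of 399 seed groups of which 34 (8.52%) were past the threshold and none had an adjusted p under 0.05. Without CON replicate 1 the seed group was at 0.86 and not past the threshold.

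miR-148a-3p, which represses the DNA methyltransferase Dnmt1, was the abundant miRNA with the smallest p. It stood at 96687, 92619.8 and 75579 CPM in CON and at 23920.0, 27825 and 45912 CPM in DFO. Every DFO library lay below every CON library, with DFO replicate 3 the nearest. The means were 88295 ± 11199 and 32552 ± 11733 CPM (SD, n = 3), a 2.71-fold lower level in DFO (log2 fold change -1.44, SE 0.37, edgeR adjusted p = 0.0401). It stayed past the threshold with each CON or DFO library left out in turn, with log2 fold changes from -1.77 to -1.34. Its adjusted p in edgeR was then 0.0222 without DFO replicate 3 and over 0.05, up to 0.386, without any other library. The FAC libraries averaged 135146 ± 72674 CPM and the VE libraries 80777 ± 15431 CPM. DFO against FAC gave a log2 fold change of -2.05 (edgeR adjusted p = 3.26e-05), FAC against CON 0.61 (edgeR unadjusted p = 0.0928) and VE against CON -0.13 (edgeR unadjusted p = 0.724), comparisons that share libraries with this one.

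The relatives of miR-148a-3p were rare. miR-148b-3p was at 424, 311 and 239 CPM in CON and 158, 348 and 386 CPM in DFO, and miR-152-3p at 51.6, 639.8 and 20.4 CPM in CON and 209, 109 and 98.3 CPM in DFO. Neither passed the test, with log2 fold changes of -0.13 (edgeR unadjusted p = 0.889) and -0.77 (edgeR unadjusted p = 0.51). With library read totals both were positive, and the median of the 3 guide arms of miR-148 and miR-152 was 1.86. The seed group CAGUGCA gave -1.18 (SE 0.36, edgeR unadjusted p = 0.000913, adjusted p = 0.121) and was past the threshold with each library left out. Nearly all of it was miR-148a-3p, with a mean over the 6 libraries of 60424 CPM beside 311 for miR-148b-3p and 188 for miR-152-3p. The sum thus repeats the result of miR-148a-3p and says little about its relatives. miR-148a-5p, the other arm, had 0, 1 and 3 counts in CON and 2, 1 and 93 counts in DFO.

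miR-143-3p, most abundant in smooth muscle and stromal cells, was at 108429, 54714 and 30994 CPM in CON and 23594, 24384 and 43417 CPM in DFO. The groups overlapped, since DFO replicate 3 exceeded CON replicate 3, and CON replicate 1 was the highest by far (log2 fold change -1.09, SE 0.41, edgeR unadjusted p = 0.00811, adjusted p = 0.373). Without CON replicate 1 the value was -0.49 and no longer past the threshold. miR-10b-5p, encoded in a Hox gene cluster, had the same order of libraries, at 55727, 41010.2 and 22357 CPM in CON and 15778, 20149 and 28420.4 CPM in DFO (log2 fold change -0.89, edgeR unadjusted p = 0.0331, adjusted p = 0.625), and it lost the call without CON replicate 1 (-0.56), CON replicate 2 (-0.79), DFO replicate 1 (-0.83) or DFO replicate 2 (-0.85). Its relative miR-10a-5p was at 8505, 7706 and 6799 CPM in CON and 5665, 5505 and 5851 CPM in DFO, lower in each DFO library than in each CON library, with a log2 fold change of -0.43 that did not pass and became 1.61 with library read totals (edgeR unadjusted p = 0.391).

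miR-22-3p, which represses the transferrin receptor, was at 729.8, 861 and 1162 CPM in CON and 267, 252 and 392 CPM in DFO. The groups did not overlap, and the level was 3.02-fold lower in DFO (log2 fold change -1.60, SE 0.79, edgeR unadjusted p = 0.0424, adjusted p = 0.641). In FAC it averaged 1251 ± 459.8 CPM and in VE 1056 ± 262 CPM. The call was lost without CON replicate 3 (-1.31), DFO replicate 1 (-1.62) or DFO replicate 2 (-1.48).

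miR-292a-5p, of the cluster that marks mouse embryonic stem cells, was at 129, 553 and 565 CPM in CON and 66.8, 85.5 and 65.3 CPM in DFO, with no overlap (log2 fold change -2.52, SE 1.06, edgeR unadjusted p = 0.0181, adjusted p = 0.52). It stayed past the threshold with each library left out. Its neighbour miR-294-3p was also past the threshold, but on 52 counts in CON replicate 1, 1 count in CON replicate 3 and none elsewhere in the 6 libraries. miR-292a-3p had no count in the 6 libraries.

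miR-503-5p, a cell cycle miRNA of the X-linked cluster with miR-322 and miR-351, was at 283, 361 and 9.43 CPM in CON and 3.45, 35.7 and 0 CPM in DFO. CON replicate 3 lay within the DFO range (log2 fold change -4.04, SE 1.51, edgeR unadjusted p = 0.00758, adjusted p = 0.373), and the call held with each library left out. None of the other tested members of the cluster was past the threshold. The log2 fold changes were -1.03 for miR-503-3p, -0.55 for miR-322-3p, -1.23 for miR-351-3p and -0.26 for miR-351-5p, while miR-450b-5p and miR-542-3p, with at most 2 counts in any CON library, were at 3.53 and 2.37, and miR-450b-3p and miR-450a-5p had at most 2 counts in any of the 6 libraries. With library read totals miR-503-3p, miR-322-3p and both arms of miR-351 were positive, between 0.08 and 1.46, near or under the shift of all entries.

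The 3 other lower miRNAs of this set overlapped between the groups. miR-296-3p, from the imprinted Gnas locus, was at 555, 1095 and 2695 CPM in CON and 452, 131 and 756 CPM in DFO (log2 fold change -1.70, edgeR unadjusted p = 0.037), while its neighbour miR-298-5p gave 0.94 (edgeR unadjusted p = 0.203). miR-3102-5p.2-5p was at 502, 50.0 and 2184 CPM in CON and 194, 119 and 253 CPM in DFO (-2.27, edgeR unadjusted p = 0.0146). miR-1a-3p, a muscle miRNA, was at 481, 0 and 291 CPM in CON and 3.10, 52.0 and 4.50 CPM in DFO (-3.69, edgeR unadjusted p = 0.0227). Without CON replicate 3 the values of miR-296-3p and miR-3102-5p.2-5p shrank to -0.85 and -0.45, and without DFO replicate 2 to -1.26 and -2.03, and neither was then past the threshold. miR-1a-3p lost the call without CON replicate 1 (-2.87), CON replicate 3 (-3.39), DFO replicate 1 (-3.12) or DFO replicate 3 (-3.22).

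Among the higher miRNAs were 2 of the let-7 family, which represses growth and is blocked by Lin28. let-7a-5p was at 4564, 5710.4 and 5293 CPM in CON and 11843, 14776 and 6517 CPM in DFO, without overlap (log2 fold change 1.09, SE 0.54, edgeR unadjusted p = 0.0434, adjusted p = 0.641). As with miR-125a-5p, DFO replicate 3 was the lowest of the DFO libraries. let-7d-5p, which is known to repress the iron importer Dmt1, was at 68.8, 52.7 and 29.9 CPM in CON and 554, 404 and 173 CPM in DFO, 7.47-fold higher (log2 fold change 2.90, SE 1.19, edgeR unadjusted p = 0.0146, adjusted p = 0.52). Its levels ran from 45.9 to 272 CPM in the FAC libraries and from 81.3 to 271 CPM in the VE libraries. let-7d-5p stayed past the threshold in 19 of 20 alternatives, and without DFO replicate 1 the p was 0.0568 (edgeR). let-7a-5p lost the call without CON replicate 1 (1.01), DFO replicate 1 (1.01) or DFO replicate 2 (0.82).

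The other 8 guide arms of the let-7 family did not pass the test. The most abundant miRNA of these exosomes, let-7c-5p, was at 148688, 219204 and 229383 CPM in CON and 241145, 284023 and 157887 CPM in DFO (log2 fold change 0.19, SE 0.33, edgeR unadjusted p = 0.561). let-7b-5p gave 0.16 (SE 0.40, edgeR unadjusted p = 0.694). Beside these, let-7c-5p averaged 95186 ± 24073 CPM in FAC and let-7b-5p 19158 ± 12444 CPM, and DFO against FAC gave 1.26 (edgeR adjusted p = 0.0271) and 1.93 (edgeR adjusted p = 0.000724). let-7i-5p was at 6711, 5229 and 6107 CPM in CON and 2967, 3153 and 3308 CPM in DFO, below CON in each library but not past the threshold (-0.94, or 1.10 with library read totals, edgeR unadjusted p = 0.111). let-7f-5p gave 0.76 (edgeR unadjusted p = 0.178). let-7d-3p, the other arm of the let-7d hairpin, was at 9783 ± 3862 and 10386 ± 1431 CPM (SD, n = 3). In all, 2 of the 10 guide arms of the family were higher, none was lower, and their median log2 fold change was 0.17, beside 0.00 for all tested entries.

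miR-146a-5p, which NF-kB induces and which represses Irak1 and Traf6, was at 8.19, 21.1 and 28.3 CPM in CON, from 10, 8 and 18 counts, and at 153, 141 and 113 CPM in DFO, from 445, 788 and 151 counts. It was 7.09-fold higher in DFO, without overlap (log2 fold change 2.83, SE 1.33, edgeR unadjusted p = 0.0331, adjusted p = 0.625), and it lost the call without CON replicate 1 (2.46) or DFO replicate 1 (2.68). It was also past the threshold in both other iron groups, at 255 ± 152 CPM in FAC and 141 ± 61.4 CPM in VE, with log2 fold changes against the same CON libraries of 3.74 (edgeR unadjusted p = 0.00678) and 2.88 (edgeR unadjusted p = 0.0304). miR-146b-5p had 2, 0 and 0 counts in CON and 1, 3 and 67 counts in DFO. The seed group of both gave 3.24 (edgeR unadjusted p = 0.0179, adjusted p = 0.513).

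miR-34b-3p, from a hairpin that p53 induces, was at 311, 326 and 37.7 CPM in CON and 882.3, 897 and 739 CPM in DFO, 3.73-fold higher and without overlap (log2 fold change 1.90, SE 0.94, edgeR unadjusted p = 0.0423, adjusted p = 0.641). Without CON replicate 3 (1.53), DFO replicate 1 (1.77) or DFO replicate 2 (1.85) it was not past the threshold. miR-34c-3p, of the same seed, gave 1.09 (edgeR unadjusted p = 0.395), and the p53-responsive guide arms miR-34a-5p and miR-34c-5p gave -1.42 (edgeR unadjusted p = 0.604) and -0.20 (edgeR unadjusted p = 0.856). miR-206-3p, a muscle miRNA, was at 111, 292 and 15.7 CPM in CON and 866, 600.3 and 355 CPM in DFO, 4.34-fold higher (log2 fold change 2.12, SE 1.06, edgeR unadjusted p = 0.0457, adjusted p = 0.641). It lost the call without CON replicate 1 (1.98), CON replicate 3 (1.75), DFO replicate 1 (1.70) or DFO replicate 2 (2.13). miR-6900-3p had 0, 1 and 0 counts in CON and 132, 291 and 101 counts in DFO (edgeR unadjusted p = 0.0461), and the call held in 1 of the 6 fits that left out a library.

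**Figure D4:**
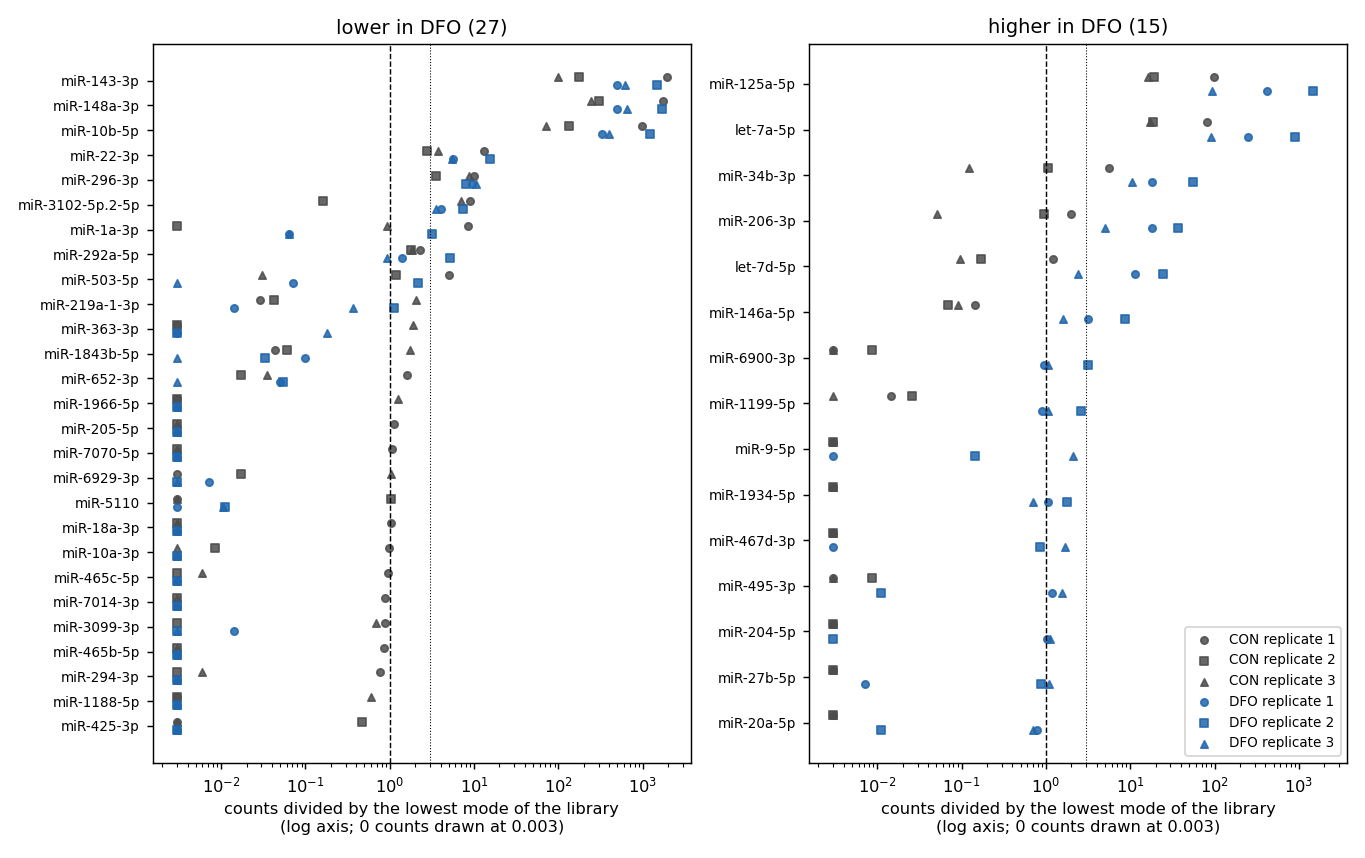
Counts of the 42 miRNAs past the threshold in the 6 libraries, divided by the lowest mode of the library (horizontal log axis, 0 counts drawn at 0.003), with miRNAs lower in DFO in the left panel and higher in the right. In the lower part of each panel, the counts of the group with the higher level lie near the dashed line at 1 and those of the other group at or near 0, and the dotted line marks 3 times the mode.

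The 18 remaining lower miRNAs rested on few counts, most of them in 1 CON library. In 16 of the 27 lower miRNAs, and in 1 of the 15 higher ones, 1 library held over 90% of the CPM of the higher group, as it did in 217 of the 454 tested entries with a count (47.8%). The library was CON replicate 1 for 8, CON replicate 3 for 6 and CON replicate 2 for 2. The 8 miRNAs of CON replicate 1 had 52 to 78 counts there, 0.758 to 1.14 times its lowest mode. They were miR-18a-3p, miR-205-5p, miR-10a-3p, miR-294-3p, miR-465b-5p, miR-465c-5p, miR-7014-3p and miR-7070-5p. The 6 of CON replicate 3 had 120 to 403 counts, 0.607 to 2.04 times its mode, and were miR-1966-5p, miR-1843b-5p, miR-6929-3p, miR-1188-5p, miR-363-3p and miR-219a-1-3p. miR-5110, with 121 counts, and miR-425-3p, with 55 counts, rested on CON replicate 2. miR-6929-3p, for example, had 0, 2 and 206 counts in CON and 1, 0 and 0 in DFO, and miR-5110 had 0, 121 and 0 in CON and 0, 1 and 1 in DFO. The DFO group had no count in any library for 11 of the 27 lower miRNAs.

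The 2 smallest p-values after miR-148a-3p belonged to this set. miR-1966-5p had 251 counts in CON replicate 3 and none in any other of the 6 libraries, which gave a level at least 103-fold lower in DFO at a floor of 3 counts per library (edgeR adjusted p = 0.0401). Without CON replicate 3 it had no count and so no value. It had 55, 26 and 27 counts in the FAC libraries. miR-1843b-5p had 3, 7 and 342 counts in CON and 14, 3 and 0 in DFO (log2 fold change -6.64, SE 1.81, edgeR adjusted p = 0.0465), and without CON replicate 3 the value was -2.24 (edgeR adjusted p = 0.776). Its paralogue miR-1843a-5p, whose sequence is shifted by 1 base, was at 22.01 to 221 CPM in CON and 72.8 to 112 CPM in DFO. The 2 remaining lower miRNAs were miR-3099-3p (60, 0 and 135 counts in CON, 2, 0 and 0 in DFO) and miR-652-3p (109, 2 and 7 in CON, 7, 5 and 0 in DFO). They had counts in 2 or 3 CON libraries, but most of them in 1. miR-3099-3p lost the call without CON replicate 3 (-6.29) and miR-652-3p without CON replicate 1 (-2.81).

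The 8 remaining higher miRNAs were absent or nearly absent from CON. No CON library had a count of miR-204-5p, miR-9-5p, miR-467d-3p, miR-1934-5p, miR-27b-5p or miR-20a-5p, while miR-495-3p (0, 1 and 0 counts in CON, 165, 1 and 148 in DFO) and miR-1199-5p (1, 3 and 0 in CON, over 100 in each DFO library, with 236 at most) had few. miR-1934-5p had 148, 162 and 67 counts in the DFO libraries, at least 8.65-fold higher (edgeR unadjusted p = 0.0223), and was the one found at 50 or more counts in each of them with none in CON. miR-204-5p, which lies in an intron of Trpm3, had 143, 0 and 107 counts in DFO, at least 8.60-fold higher (edgeR unadjusted p = 0.00817), and kept the call with each library left out. It had no count in FAC and was at 37.2 to 68.7 CPM in VE. The other arm of its hairpin, miR-204-3p, was present in CON, with 450, 84 and 419 counts there and 850, 170 and 622 in DFO. Its log2 fold change was -0.66 (edgeR unadjusted p = 0.485), opposite in sign to that of miR-204-5p. miR-9-5p, a neuronal miRNA, had 0, 13 and 198 counts in DFO and lost the call without DFO replicate 3 (5.14), CON replicate 2 (10.30) or CON replicate 3 (10.29). miR-20a-5p, of the miR-17 to miR-92a cluster and known to repress the iron exporter ferroportin, had 110, 1 and 66 counts in DFO, at least 5.81-fold higher (edgeR unadjusted p = 0.0326), and the call held in 1 of 6 fits that left out a library.

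The most abundant miRNAs were among those that did not pass. Of the 8 with the highest mean level, let-7c-5p, miR-122-5p, miR-423-5p, miR-151-3p, let-7b-5p, miR-99a-5p, miR-148a-3p and miR-143-3p, the last 2 were past the threshold and the other 6 had log2 fold changes between -0.30 and 0.19. miR-423-5p gave -0.21, miR-151-3p -0.27 and miR-99a-5p -0.30, and with library read totals these 3 were at 1.69, 1.80 and 1.87, above the shift of 1.45.

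With each CON or DFO library left out in turn, 27 to 40 miRNAs were past the threshold, the fewest without DFO replicate 1. The miRNAs past it in all 6 of these fits were miR-148a-3p, miR-503-5p, miR-292a-5p, miR-125a-5p and miR-204-5p. The 3 adjusted calls became 2 without CON replicate 1, CON replicate 2 or DFO replicate 3 and 0 without CON replicate 3, DFO replicate 1 or DFO replicate 2.

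Lists of miRNAs linked to iron, hypoxia and cell stress were set beside all tested entries, of which 7.68% were past the threshold, 2.74% higher and 4.94% lower, with a median log2 fold change of 0.00. These shares and this median are also the background of every list and marker count that follows, and the lists are small enough that 1 or 2 members set their share. Of the tested entries, 454 had a count in the 6 libraries. The others could not be past the threshold and had a log2 fold change of 0.00. They lower the background shares and draw medians toward 0.00. Of 12 tested miRNAs known to repress genes of iron handling, 2 were higher (let-7d-5p and miR-20a-5p) and 1 was lower (miR-22-3p), with a median log2 fold change of 0.50, or 0.00 with groups at 0 counts set to their floor and members of at most 3 counts in each library left out. The most abundant, miR-122-5p, a liver miRNA that represses Hfe and hemojuvelin, was at 109352, 132208 and 117710.5 CPM in CON and 168241, 41724 and 114792 CPM in DFO, so its DFO libraries spread on both sides of CON. miR-320-3p, which represses the transferrin receptor, gave -0.23 (edgeR unadjusted p = 0.655). Of 7 tested miRNAs linked to hypoxia, 1 was higher (miR-20a-5p), and their median was 3.22, or 2.54 when limited in the same way. The list's members were rare, with means over the 6 libraries from 0.0574 CPM (miR-20b-5p) to 65.6 CPM (miR-199a-5p), and their summed level was 116 ± 185 CPM in CON and 124 ± 69.7 CPM in DFO (SD, n = 3). miR-210-3p, the best known target of the hypoxia-inducible factors, had 2, 0 and 1 counts in CON and 1, 552 and 0 counts in DFO, so a difference rested on DFO replicate 2 and did not pass (edgeR unadjusted p = 0.143). Of the 6 miR-34, miR-146 and miR-155 members, miR-146a-5p was higher and the median was 1.82.

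**Figure D5:**
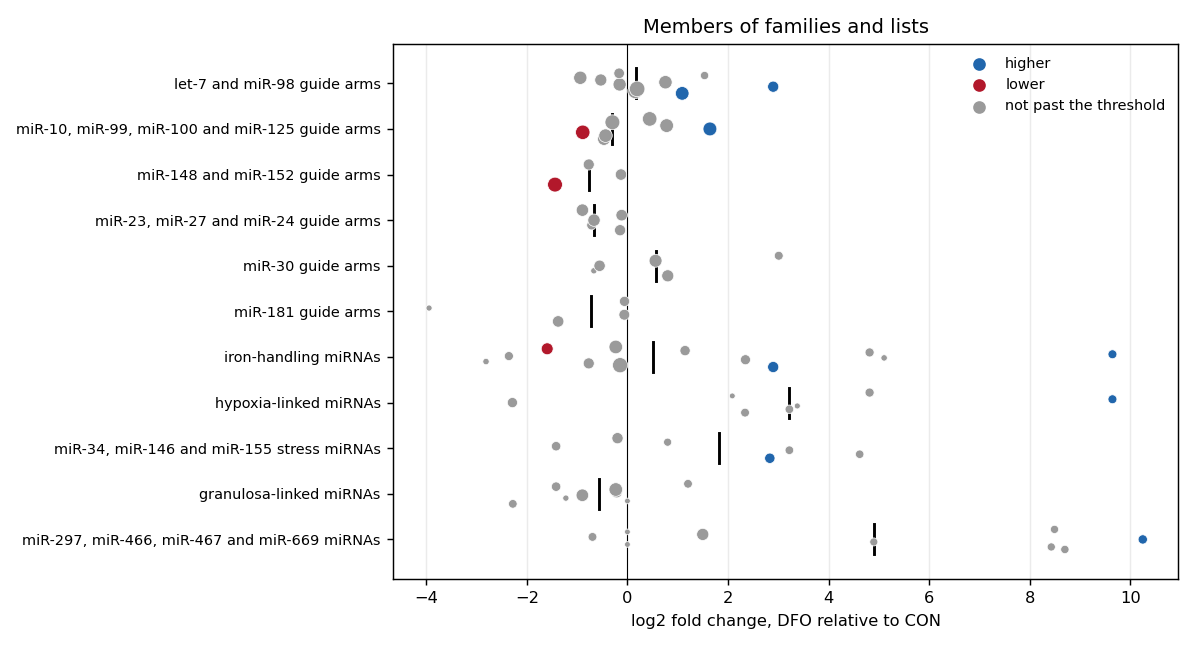
The log2 fold change of DFO relative to CON (horizontal axis) of the tested members of 11 lists (rows), with larger points for more abundant miRNAs and a black bar at the median of the list. The largest points lie within 2 log2 units of 0 in every row that has them, and the values beyond 4 in the lower rows belong to small points.

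Granulosa-linked and other families gave few calls. Of 8 tested granulosa-linked miRNAs, among them the survival miRNA miR-21a-5p (2060.3 ± 613 CPM in CON and 1107 ± 209.6 CPM in DFO, SD, n = 3, edgeR unadjusted p = 0.186), none was past the threshold and the median was -0.56, or 0.63 with library read totals. The 5 guide arms of miR-23, miR-27 and miR-24 all had negative log2 fold changes, with a median of -0.66 (1.42 with library read totals, beside 1.45 for all entries) and none past the threshold. For 2 of them the DFO libraries lay below all CON libraries, as they did for 2.19% of all tested entries: miR-27b-3p was at 1405, 1301 and 2319 CPM in CON and 787, 890.1 and 1027 CPM in DFO, and miR-24-3p at 1815, 1090.0 and 1426 CPM in CON and 924, 1064 and 745 CPM in DFO. No member was past the threshold among the 5 guide arms of miR-30 (median 0.56), the 5 of miR-26 and miR-29 (-0.57, or 1.61 with library read totals), the 4 of miR-181 (-0.72, or 0.71 with library read totals, and -0.061 without miR-181c-5p, which had 1 count in the 6 libraries) or the 2 of miR-221 and miR-222 (1.14). The 7 guide arms of miR-10, miR-99, miR-100 and miR-125 held 1 higher and 1 lower miRNA, with a median of -0.30 (1.87 with library read totals). The miR-17 to miR-92a family and its paralogues had 9 tested guide arms, 1 higher (miR-20a-5p) and 1 lower (miR-363-3p), and the miR-15, miR-16, miR-322 and miR-503 family had 4, 1 of them lower. Among 14 miRNAs that the study picked from these libraries, so that their values are not independent evidence, 1 was lower (miR-1966-5p) and the median was -0.21, or 1.39 with library read totals.

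The rodent miRNAs of the miR-297, miR-466, miR-467 and miR-669 families, which are encoded in a large cluster within Sfmbt2, summed to 358 to 654 CPM in the CON libraries and 1307 to 1447 CPM in the DFO libraries. Most of this was miR-669c-5p, at 612, 358 and 390.0 CPM in CON and 1317, 1240.3 and 1286 CPM in DFO. Its DFO libraries lay close together and above each CON library, but it did not pass (log2 fold change 1.498, SE 0.87, edgeR unadjusted p = 0.0868). Of the 9 tested members, 1 was past the threshold, miR-467d-3p, with 0, 77 and 159 counts in DFO and none in CON. Of 40 tested miRNAs of the imprinted Dlk1-Dio3 region 1 was higher (miR-495-3p) and none lower, with a median of 0.00. Of the 47 members of this list, tested or not, 12 had no count in the 6 libraries. Of 178 tested miRNAs with numbers above 1000, 3 were higher and 8 lower, beside 2.74% and 4.94% of all entries.

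No miRNA defines granulosa cells, so the labelled cell type could not be checked against a marker. Markers of several other cell types were present in both groups. The erythroid pair of miR-486a-5p and miR-486b-5p, counted as 1 entry, was at 40137, 65029 and 29562 CPM in CON and 36701, 15350.5 and 85175 CPM in DFO, and miR-451a at 804, 653 and 50.3 CPM in CON and 8.61, 75.7 and 646 CPM in DFO. The summed erythroid markers ranged from 29612 to 65682 CPM in CON and from 15426 to 85822 CPM in DFO, and neither of the 2 tested markers was past the threshold. The stromal and theca markers summed to 31035 to 109235 CPM in CON and 23947 to 44045 CPM in DFO, nearly all of it miR-143-3p, the 1 of 6 past the threshold. Of the germ cell and early embryo markers 2 of 3 were lower (171 to 566 CPM in CON and 65.3 to 85.5 CPM in DFO in sum), but 1 of these, miR-294-3p, rested on CON replicate 1, and the third, miR-292a-3p, had no count. Of the epithelial markers 1 of 6 was lower, miR-205-5p, which also rested on CON replicate 1, and the list summed to 7.90 to 336 CPM in CON and 11.4 to 38.3 CPM in DFO. The muscle markers split, with miR-206-3p higher and miR-1a-3p lower. The neuronal marker miR-9-5p was at 0 in each CON library and at 0 to 149 CPM in DFO, and was higher. None of the 4 tested leukocyte markers (21.1 to 317 CPM in CON and 29.2 to 368.5 CPM in DFO) and neither miR-126a-3p of endothelium nor miR-122-5p of liver was past the threshold. The liver marker miR-122-5p was nonetheless among the most abundant miRNAs of both groups, at 119757 ± 11565 CPM in CON and 108252 ± 63511 CPM in DFO (SD, n = 3). Whether a different mix of cells had a part in the differences above was not tested, and fewer vesicles of a type and less of a miRNA per vesicle cannot be told apart in these libraries.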

How the data were processed

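Small RNA of 15 to 41 bp in 12 exosome libraries was sequenced, and the deposited tables give the authors' raw read counts per miRNA entry. The submitters' processing notes name the genome build mm9. Which aligner and miRNA database they used, and how a read with several matches was counted, are not given in the sources used here. A second deposited table per library gives the authors' RPM, reads scaled to a library total, and that total was recovered as count divided by RPM. No per-sample column was left out (0).

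Groups were taken from the treatment labels. Counts were tested with edgeR 4.0.16 (quasi-likelihood test, TMM, R 4.3.3) in a fit of all 12 libraries in 4 groups, so that FAC and VE contributed to the estimate of spread, for entries with 10 or more counts in sum. An SE printed beside a log2 fold change is its absolute value divided by the square root of the test's F statistic. It is thus no estimate of precision separate from the test. The common biological coefficient of variation was 1.57. The median prior degrees of freedom of the dispersions were infinite, so the dispersions followed the trend over entries of similar level. The threshold, a fold of 1.5 and p under 0.05, is the study's, whose methods name no adjustment. Library measures were compared by exact permutation tests. Sums over 7-base seeds were fitted in the same way. They cover matched entries, which held 63.9% to 81.1% of the counts of the 6 libraries. Floors are 3 counts per library, averaged over the group in CPM (5.02 in CON, 1.27 in DFO). Alternatives used DESeq2 1.42.0 on the counts and limma 3.58.1 on log2(RPM + 1) and log2(RPM + 0.1). Lowest modes used a kernel width of 0.18 on log2 counts between 10 and 500, chosen after the counts were seen. The members and lists were chosen with earlier results of these data known. Named were the miRNAs past the threshold, the 8 most abundant, miR-210 and list members. Further relatives and other arms of the miRNAs past the threshold were chosen after their values were seen. miR-210-5p is not analysed here.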

Additional observations from a re-analysis of the deposited data

How the results depend on the processing

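Depth limits the low entries most, since CON replicate 2 held 452021 miRNA counts, and a difference in an entry near the floor of 3 counts was not detectable there. The count of miRNAs past the threshold (42) was 93 with library read totals, 92 and 73 with limma on log2(RPM + 1) and log2(RPM + 0.1), 15 with 10 counts required in each library, 25 with DFO and CON fitted alone and 23 with the replicate block (20 of them shared with the 42). All calls of both limma settings were higher in DFO, and 10 and 13 of them were among the 42. Library read totals shared 18 calls with the 42, and RLE factors shared 40. DESeq2 on all libraries called 51, with 25 shared. The other edgeR default called 30, 6 higher and 24 lower, with 22 shared. Correlations of the deviations from the group mean between CON and DFO libraries of the same number were -0.058, -0.00588 and -0.086. Across numbers they ran from -0.023 to 0.080, and none of the CON libraries correlated best with the DFO library of its own number. With 3 libraries in a group these values show no pairing by number but cannot exclude it. Leaving out a library gave 27 to 40. The 3 adjusted calls became 17 with library read totals, 13 with DESeq2 on all libraries, 7 and 1 with limma, 0 with no composition factor, the other edgeR default, the stricter filters, the replicate block or thinned counts, and 0 to 2 without a library. The 34 seed groups became 18 with the replicate block and 20 to 30 without a library. The 33 entries without overlap became 70 with RPM, all of them with DFO above CON. The difference in detected entries (41.3) was 6.0 with thinned counts and 70.7 at 10 or more counts, and the difference in the share of the top 10 (-1.64 points) was 5.37 for the top 3. The causes of these moves were not tested.

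With library read totals, limma on log2(RPM + 1) and limma on log2(RPM + 0.1), in that order, log2 fold changes turned positive for miR-148a-3p (0.47, 0.53, 0.53), miR-143-3p (0.57, 1.06, 1.06), miR-10b-5p (0.97, 1.19, 1.19), miR-296-3p (0.10, 0.28, 0.29) and miR-22-3p (0.44, 0.41, 0.42). With the first 2 of these they turned positive for miR-122-5p (1.73, 1.66), miR-423-5p (1.69, 1.63), miR-151-3p (1.80, 1.69), miR-99a-5p (1.87, 1.73), let-7e-5p (2.38, 1.99) and miR-10a-5p (1.61, 1.59). A setting left unnamed for a miRNA, here or below, is one whose value is not given, and the sign may have turned there too. miR-292a-5p (0.028) and miR-34c-5p (2.46) did so with library read totals, miR-3102-5p.2-5p with both limma settings (0.61, 0.89), miR-148b-3p with log2(RPM + 1) (1.71) and miR-219a-1-3p with log2(RPM + 0.1) (0.090). miR-148b-3p and miR-152-3p were positive with library read totals too, where the median of the 3 guide arms of miR-148 and miR-152 was 1.86. The sign also turned with library read totals for let-7i-5p (1.10), miR-503-3p (0.083), miR-322-3p (1.00), miR-351-3p (1.09) and miR-351-5p (1.46), none of them past the threshold in either fit. Without CON replicate 3, miR-363-3p was at 6.72 and miR-219a-1-3p at 1.06, the highest of their values without 1 library, and the lowest were -12.46 and -4.51. No count was left, and so no value, for miR-1966-5p without CON replicate 3, miR-425-3p without CON replicate 2, and miR-18a-3p and miR-205-5p without CON replicate 1.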

Other observations

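Short motifs that have been linked to the sorting of miRNAs into or out of exosomes were looked up in the mature sequences, a description chosen after the results were seen. GGAG, read on the mature strand, was found in 55 of the 473 tested entries with a sequence (11.6%), in 0 of the 14 higher miRNAs with one and in 6 of the 24 lower ones (miR-1843b-5p, miR-205-5p, miR-296-3p, miR-3102-5p.2-5p, miR-5110 and miR-7070-5p). CCCU was found in 48 of the 473 (10.1%), in 3 of the 14 higher miRNAs (miR-125a-5p, miR-1934-5p and miR-204-5p) and in 3 of the 24 lower ones (miR-10b-5p, miR-18a-3p and miR-294-3p). Of the lower miRNAs named, miR-1843b-5p, miR-205-5p, miR-5110 and miR-7070-5p with GGAG each had over 90% of their CON level in 1 library. The same held for miR-18a-3p and miR-294-3p with CCCU. A match is a match of letters and no sign of sorting.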
